A study of Mus musculus with 4 samples.

Results

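The 9 genes described here encode the chains of the fibril-forming collagens of bone, skin and tendon, together with 2 fibril-associated collagens. They are Col1a1 and Col1a2 (collagen I), Col3a1 (collagen III), Col5a1, Col5a2 and Col5a3 (collagen V), Col24a1 (collagen XXIV), Col12a1 (collagen XII) and Col14a1 (collagen XIV). They were chosen by family, by name, with earlier results of these data known. They make up 9 of the 34547 genes and 9 of the 44 collagen genes measured. RNA was sequenced from 4 libraries of C57BL/6 mouse forelimb cartilage, with no transgene or treatment named in the labels. PC1 and PC2 are proliferating chondrocytes of E14.5 embryos (embryonic days after conception), and HC3 and HC4 are hypertrophic chondrocytes of E15.5 embryos. Cells of both groups were taken from frozen sections by laser microdissection, and the libraries were made with a kit meant for degraded RNA. Cell zone and embryonic age change together in this design, so they cannot be told apart. The labels do not say whether replicates came from separate animals, so the p-values measure only the spread between these samples.

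Fibrillar collagens are secreted as procollagens of 3 chains wound into a triple helix, trimmed at their ends outside the cell, laid into fibrils and cross-linked. Collagen I is the main fibril of bone, tendon and skin, while cartilage fibrils are built mainly of collagens II, IX and XI. Collagen III joins collagen I in stretchy tissues, collagen V starts collagen I fibrils and limits their width, and collagen XXIV is a fibrillar collagen known from developing bone. Collagens XII and XIV do not form fibrils of their own but sit on the fibril surface. In the growth plate, collagen X marks hypertrophic chondrocytes, and collagen I is known mainly from the surrounding perichondrium and from osteoblasts.

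Col1a1, Col1a2, Col5a2 and Col24a1 rose in the hypertrophic libraries, by 6.86-fold to 12.6-fold. Col3a1, Col5a1, Col5a3, Col12a1 and Col14a1 did not pass the test. A gene passed where its adjusted p was below 0.05 in edgeR's quasi-likelihood test between HC and PC, adjusted by Benjamini-Hochberg over all 16607 genes tested. All 9 genes passed the filter on low counts. The 4 of 9 genes called higher stand beside 6.28% of all genes tested, and the 0 of 9 called lower stand beside 5.13%. The number called higher was 2 without PC1 and 2 with edgeR's earlier quasi-likelihood method, and 0 with limma on log2 TPM, and the number called lower was 3 without HC3. At an unadjusted p below 0.05, 1 of the 9 was lower in edgeR, and DESeq2 called 0 lower after adjustment. In CPM, a count relative to library size after TMM scaling (a trimmed-mean correction for composition), both HC libraries lay above both PC libraries for 4 of the 9 genes, beside 27.7% of all genes tested. Both HC libraries lay below both PC libraries for 2 of the 9, beside 33.3% of all genes. The median log2 fold change over the 9 genes was 0.30, and over all genes tested it was -0.03.

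RefSeq promoter windows were at hand for 5 of the 9 genes (GRCm38.p6). The 250 bases before the start of 3 of them are shown here because Col24a1 rose and Col3a1 and Col5a1, which also lay within the fibril-forming group, did not pass the test. The 3 windows lie at chr3:145292222-145292471, chr1:45311288-45311537 and chr2:27886175-27886424, all on the plus strand, and are written 5′ to 3′. Capitals mark a match to one of 7 short motifs searched on both strands: the box TATAAA of many start sites, the box CCAAT bound by NF-Y, the GC box GGGCGG, the Runx core TGTGGT, the Sox cores ACAAAG and, in a second form, ACAATG, and the E-box CAGCTG. None of these motifs overlapped another in the bases shown.
Col24a1: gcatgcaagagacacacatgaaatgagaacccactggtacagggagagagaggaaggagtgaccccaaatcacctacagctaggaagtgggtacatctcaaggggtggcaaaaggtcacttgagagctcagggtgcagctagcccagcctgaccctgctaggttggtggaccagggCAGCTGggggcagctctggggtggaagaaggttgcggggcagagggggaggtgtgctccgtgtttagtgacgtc
Col3a1: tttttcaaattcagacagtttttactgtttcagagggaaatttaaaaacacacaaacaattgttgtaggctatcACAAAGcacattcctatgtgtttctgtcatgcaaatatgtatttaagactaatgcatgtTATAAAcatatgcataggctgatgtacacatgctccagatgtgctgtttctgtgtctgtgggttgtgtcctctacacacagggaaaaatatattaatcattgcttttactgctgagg
Col5a1: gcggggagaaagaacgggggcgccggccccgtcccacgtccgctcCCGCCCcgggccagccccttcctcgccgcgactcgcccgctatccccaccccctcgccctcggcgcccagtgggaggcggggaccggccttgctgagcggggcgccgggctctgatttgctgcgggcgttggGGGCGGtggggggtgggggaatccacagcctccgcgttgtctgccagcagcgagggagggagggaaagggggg
Col24a1 held 1 match, CAGCTG, 74 bases before the start. Col3a1 held TATAAA 117 bases and ACAAAG 176 bases before the start. Col5a1 held GGGCGG 73 bases before the start and, on the other strand, 205 bases before it, where it reads as CCGCCC. These motifs are common: among 32817 RefSeq windows of the same length, 300 bases with 50 after the start, CAGCTG was present in 16.31%, TATAAA in 13.62%, ACAAAG in 18.72% and GGGCGG in 35.63%. The share of G and C over the 300 bases was 56.3% for Col24a1, 37.7% for Col3a1 and 75.0% for Col5a1. TGTGGT and ACAATG were not among the matches in these windows, which says only that those letters are absent from these bases. The windows of the other 2 genes, which are not printed, held several matches each. Col5a3, which did not pass the test, also held CAGCTG, 81 bases before the start, with CCAAT at 122 bases and GGGCGG at 63, 41 and 4 bases. Col1a2, which rose, held GGGCGG at 205 and 188 bases and CCAAT at 109 bases and at the start. Its window (chr6:4505368-4505667) begins inside an annotated exon of Col1a2, and the transcript Col1a2-201 starts within it, at position 4505493. The Col1a2 matches thus lie inside the annotated gene. Both GGGCGG matches nevertheless lie before the start of Col1a2-201, which held 83.4% to 88.5% of the gene's TPM, and the CCAAT matches lie after it.

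The deposited libraries held between 15246529 and 36644496 estimated counts, and the HC libraries were the shallower pair. Mitochondrial transcripts took 8.81% to 13.1% of counts in PC and 14.1% to 20.2% in HC, and the gene model Gm10800 took 8.75% of counts in HC3 against 1.75% to 2.67% in the other 3 libraries. Without these genes the test still called the same number of members, 4 higher and 0 lower. The marker of the hypertrophic zone, Col10a1, was 109 and 876 CPM in PC1 and PC2 and 17803 and 26922 CPM in HC3 and HC4. In such bulk libraries, a change in the share of cells that make an RNA and a change in RNA per cell cannot be told apart.

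Both collagen I genes rose. Per length, in TPM (transcript abundance on a fixed total), they were the highest of the 9 genes in every library. Col1a1, which encodes the chain present in 2 copies per molecule, lies at chr11:94936224-94953042 on the plus strand (GRCm38, as are all gene positions here). It had 374 and 741 CPM in PC1 and PC2 and 9312 and 3170 CPM in HC3 and HC4. Both HC libraries were above both PC libraries, and HC3 was well above HC4. Col1a1 rose by 3.48 ± 0.72 (SE, n = 2 a group) on the log2 scale, 11.2-fold, with an edgeR adjusted p of 0.0196. Col1a2, the partner chain, lies at chr6:4504814-4541544 on the plus strand. It had 286 and 405 CPM in PC1 and PC2 and 3574 and 1163 CPM in HC3 and HC4, the same order of libraries as Col1a1. Col1a2 rose by 2.78 ± 0.60 (SE, n = 2 a group) on the log2 scale, 6.86-fold, with an edgeR adjusted p of 0.0219.

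The direction of both collagen I genes held in all 16 alternative settings, and the calls did not. With edgeR's earlier quasi-likelihood method the adjusted p was 0.0529 for Col1a1 and 0.0632 for Col1a2. Without PC1 it was 0.134 and 0.103, and Col1a2 with no filter on low counts had 0.0503. With limma on log2(TPM + 1) it was 0.0579 and 0.0743, and no gene of the table passed there. Over all alternatives the adjusted p ran from 1.07e-08 to 0.134 for Col1a1 and from 3.05e-06 to 0.103 for Col1a2, where the smallest are those of DESeq2. Leaving out HC3 lowered the log2 fold change of Col1a1 to 2.51 and of Col1a2 to 1.75, and both kept adjusted p-values below the threshold, 0.00726 and 0.0108.

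In CPM, the hypertrophic libraries lay far apart for collagen I and close together for Col5a2 and Col24a1. This contrast depended on the scale, and in TPM the libraries lay apart for all of these genes. HC3 and HC4 had 1276 and 681 TPM for Col1a1 and 582 and 305 TPM for Col1a2. They had 64.2 and 104 TPM for Col5a2 and 7.91 and 13.9 TPM for Col24a1, with HC4 the higher. The ratio of HC3 to HC4 in CPM was 2.94 for Col1a1 and 3.07 for Col1a2, values that 9.12% and 8.63% of all genes tested reached or passed. For Col5a2 the same ratio was 0.995 and for Col24a1 1.07. Ihh, the signal of early hypertrophic cells, had a ratio of 6.01, and Col10a1 had 0.661. Creb3l1, a transcription factor that drives collagen I secretion in osteoblasts, had 3.14. Within PC, the ratio of PC2 to PC1 was 1.98 for Col1a1 and 1.41 for Col1a2, against 8.03 for Col10a1 and 13.8 for Mmp13, the collagenase of late hypertrophic cells. HC3 thus held the highest collagen I levels and not the highest Col10a1, and PC2 exceeded PC1 in both.

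**Figure D1:**
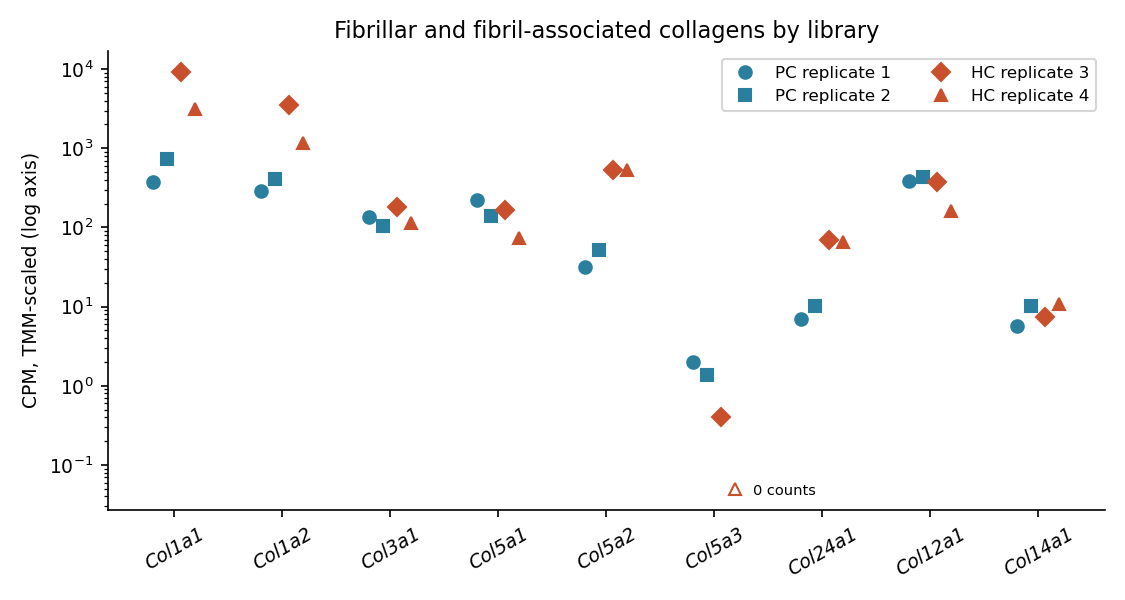
CPM (log axis) of the 9 genes in each of the 4 libraries, with circles and squares for the PC libraries and diamonds and triangles for the HC libraries. Col1a1, Col1a2, Col5a2 and Col24a1 have both HC points above both PC points; the open triangle marks Col5a3 in HC4, which had 0 counts and has no place on a log axis.

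Among the other genes of the table, those closest to collagen I in pattern were sought among 6785 protein-coding genes with a mean TPM of at least 10, by Euclidean distance of centred log2 CPM over the 4 libraries. For Col1a1 they were Hrc (0.146), Cd68 (0.241), R3hcc1l (0.361), Spi1 (0.596) and Cd34 (0.704). For Col1a2 they were Ifitm3 (0.332), Cd34 (0.347), Nrp2 (0.385), Cdh2 (0.436) and Fmn1 (0.544). Cd68, a macrophage glycoprotein, had 3.69 and 8.33 CPM in PC1 and PC2 and 87.9 and 34.7 CPM in HC3 and HC4. Cd34, carried by endothelial and fibroblast-like cells, had 6.10 and 10.9 CPM in PC1 and PC2 and 87.5 and 36.1 CPM in HC3 and HC4. The distances rest on 4 points in 2 groups, and many genes share such a pattern.

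Markers of other cell types also moved between the groups, and their part in the collagen I result was not tested. Of all genes tested, 27.7% were higher in both HC libraries and 33.3% were lower in both. Of 6 joint markers tested, 1 was higher in both HC libraries and 4 were lower in both. Of 8 nerve and glia markers tested, 2 were higher in both and 5 lower. Of 7 epidermis markers tested, 5 were higher in both and 0 lower. Of 13 osteoblast markers, 12 were tested and 11 were higher in both HC libraries, with a summed TPM of 109 to 520 in PC and 4777 to 8608 in HC. That list shares Alpl, Ibsp, Spp1 and Phex with the hypertrophic chondrocyte markers. Most of the HC sum was Ibsp (2316 and 1920 TPM in HC3 and HC4) and Spp1 (2062 and 6137 TPM). Of the markers not shared, Dmp1 had 0.593 and 5.77 TPM in PC1 and PC2 and 90.7 and 58.3 TPM in HC3 and HC4. Dlx5 had 44.9 and 35.4 TPM in PC and 51.3 and 64.7 TPM in HC. Sp7 overlapped, with 18.2 and 10.6 TPM in PC and 9.20 and 22.6 TPM in HC. Bglap, which encodes osteocalcin, had 0 and 0.948 TPM in PC1 and PC2 and 15.6 and 12.6 TPM in HC3 and HC4, and Bglap2 was at 0 in both HC libraries. Of 20 perichondrium and fibroblast markers, 17 were tested, 10 were higher in both HC libraries and 3 were lower in both. Their summed TPM was 436 to 449 in PC and 572 to 714 in HC, 4 were at 0 in HC3 and 1 was in HC4, and Twist2 was at 0 in both. The 12 macrophage markers summed to 13.3 and 18.8 TPM in PC and to 111 and 63.0 TPM in HC3 and HC4, with 8 of 10 tested higher in both HC libraries. The 12 endothelial markers summed to 21.6 to 27.4 TPM in PC and 79.8 to 112 TPM in HC, and the 9 osteoclast markers to 16.2 to 47.9 TPM in PC and 395 to 405 TPM in HC. The 9 tendon markers summed to 199 to 287 TPM in PC and 177 to 224 TPM in HC. Of 8 tested, 4 were higher in both HC libraries and 3 were lower in both. Fmod, the largest of them in PC, fell from 224 and 112 TPM in PC1 and PC2 to 23.8 and 24.5 TPM in HC3 and HC4. Tnc had 32.6 and 39.5 TPM in PC1 and PC2 and 116 and 54.3 TPM in HC3 and HC4, and did not pass the test. Scx had 2.12 and 0.865 TPM in PC1 and PC2 and 0 and 0.056 TPM in HC3 and HC4. Mkx had 23.1 and 38.0 TPM in PC1 and PC2 and 9.96 and 7.65 TPM in HC3 and HC4. Tnmd, which defines tendon cells, was at 0 in PC1 and HC4 and at most 0.255 TPM elsewhere. The 18 skeletal muscle markers summed to 53.2 and 79.9 TPM in PC1 and PC2 and to 270 and 136 TPM in HC3 and HC4, with 13 of 16 tested higher in both HC libraries and 0 lower in both. The 10 red blood cell markers summed to 68.8 and 101 TPM in PC1 and PC2 and to 459 and 701 TPM in HC3 and HC4, with 7 of 8 tested higher in both HC libraries. Within HC, the fibroblast, tendon, macrophage, endothelial and skeletal muscle sums were higher in HC3, as were Col1a1 and Col1a2. The osteoblast, red blood cell, epidermis, joint, nerve and glia, chondrocyte and hypertrophic chondrocyte sums were higher in HC4. The osteoclast sums were close, at 395 and 405 TPM in HC3 and HC4. Such sums follow their most abundant genes, and single markers of a list differed. Of the osteoblast markers, Ibsp, Dmp1 and Bglap were higher in HC3, while Spp1, Dlx5, Sp7 and most others were higher in HC4. Of the fibroblast markers, Thy1 and Cd34 were higher in HC3, and Twist1 and Fap in HC4. Of the tendon markers, Tnc was higher in HC3 and Egr1 in HC4.

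Collagen V showed a split between its chains. Col5a2, the chain found once in the common collagen V molecule, lies at chr1:45374321-45503282 on the minus strand. It had 31.4 and 51.7 CPM in PC1 and PC2 and 525 and 527 CPM in HC3 and HC4. The 2 HC libraries were nearly equal in CPM, though not in TPM, and far above both PC libraries on either scale. Col5a2 rose by 3.66 ± 0.39 (SE, n = 2 a group) on the log2 scale, 12.6-fold, the largest rise of the 9 genes in this fit, with an edgeR adjusted p of 0.00589. The earlier method gave an adjusted p of 0.0359, and leaving out any 1 library gave log2 fold changes of 3.35 to 4.06. The adjusted p ranged from 1.55e-20 to 0.0687 over the 16 alternatives, of which 14 passed.

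Col5a1, the chain present in 2 copies in the same molecule, lies at chr2:27886425-28039514 on the plus strand. It had 223 and 141 CPM in PC1 and PC2 and 166 and 74.6 CPM in HC3 and HC4, so the groups overlapped in CPM. In TPM they did not, with 41.4 and 22.4 in PC1 and PC2 and 15.9 and 11.2 in HC3 and HC4. Its log2 fold change was -0.60 ± 0.43 (SE, n = 2 a group), with an edgeR adjusted p of 0.386. Without HC3 the value was -1.29 with an adjusted p of 0.0363, and over all alternatives the adjusted p ran to 0.925.

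Col5a3, a chain found in a minor form of collagen V, lies at chr9:20770050-20815067 on the minus strand. It had 68 and 53 estimated counts in PC1 and PC2 and 5 and 0 in HC3 and HC4, which is 1.98, 1.38, 0.406 and 0 CPM. Both HC libraries lay below both PC libraries, at very few counts. The log2 fold change of -3.45 ± 1.40 (SE, n = 2 a group) had an edgeR adjusted p of 0.13. In HC4 alone, set against a floor of 3 counts in that library (0.135 CPM), the level was at least 12.4-fold lower than the PC mean. Without HC3, where the HC group is then at 0, the adjusted p was 0.00539, and over the alternatives it reached 0.591. The bound covers counting error only.

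The ratio of Col5a1 to Col5a2, taken on TPM, turned over between the zones. It was 5.62 and 2.10 in PC1 and PC2 and 0.248 and 0.107 in HC3 and HC4. In TPM, Col5a1 was 41.4, 22.4, 15.9 and 11.2 and Col5a2 was 7.36, 10.7, 64.2 and 104 in PC1, PC2, HC3 and HC4. Col5a1 was the more abundant chain in both PC libraries and Col5a2 in both HC libraries. With 2 libraries per group an exact two-sided permutation test cannot go below p = 0.333, so the ratio is given without a test. Col5a1 stood at 0.412 and 0.132 of Col1a1 in PC1 and PC2 and at 0.0125 and 0.0164 in HC3 and HC4.

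**Figure D2:**
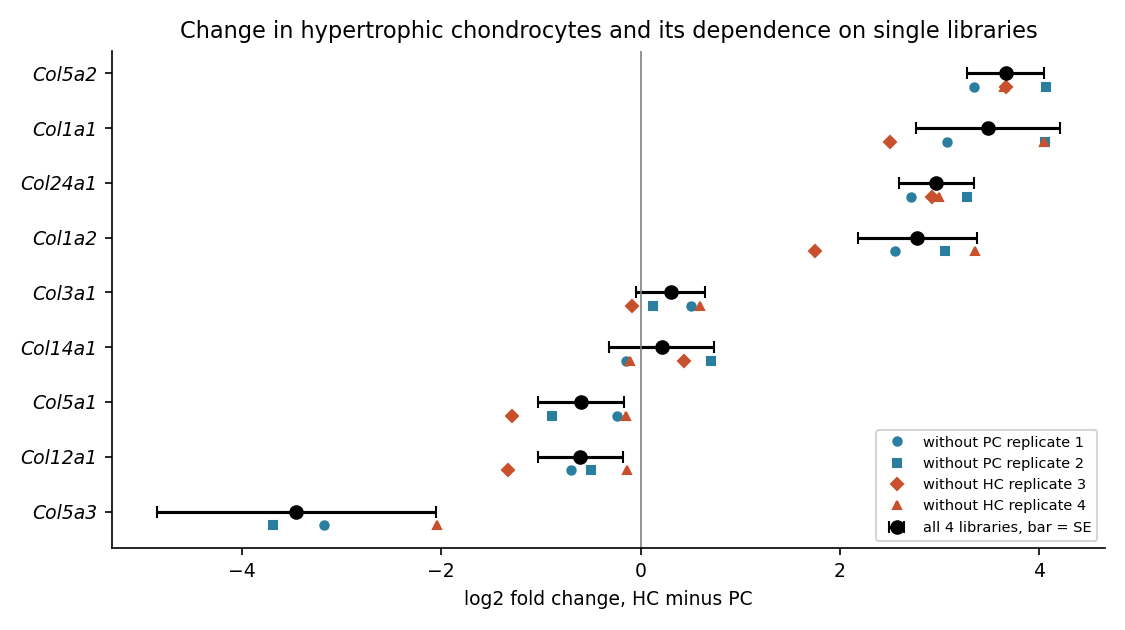
Log2 fold change of HC against PC for the 9 genes, with black points and SE bars for all 4 libraries and coloured points for fits that leave out 1 library. Col5a2 and Col24a1 stay close to their value in every such fit, Col1a1 and Col1a2 spread over more than 1 log2 unit, and Col5a3 without HC3 (-8.73, with HC at 0) is not drawn.

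Col3a1, the single chain of collagen III, lies at chr1:45311538-45349706 on the plus strand, next to Col5a2 on the same chromosome but on the other strand. It had 136 and 105 CPM in PC1 and PC2 and 184 and 114 CPM in HC3 and HC4. The groups overlapped, with HC4 between the PC libraries. Its log2 fold change was 0.30 ± 0.35 (SE, 2 libraries a group) with an edgeR adjusted p of 0.605, and no alternative passed. The sign turned with scaling by library size alone (-0.01), without HC3 (-0.09), and on TPM (-0.33 and -0.32 with pseudocounts of 0.1 and 1). As a ratio of TPM, Col3a1 was 0.464 and 0.152 of Col1a1 in PC1 and PC2 and 0.0229 and 0.0385 of it in HC3 and HC4. Col5a2 was 0.158 and 0.414 of Col3a1, its chromosomal neighbour, in PC1 and PC2 and 2.20 and 3.99 of it in HC3 and HC4.

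Col24a1, the only chain of collagen XXIV, lies at chr3:145292472-145552011 on the plus strand, and its promoter window is printed above. It had 6.97 and 10.3 CPM in PC1 and PC2 and 69.7 and 65.5 CPM in HC3 and HC4. As with Col5a2, the HC libraries were close to each other in CPM, though not in TPM, and above both PC libraries. Col24a1 rose by 2.97 ± 0.38 (SE, n = 2 a group) on the log2 scale, 7.81-fold, with an edgeR adjusted p of 0.00589. The earlier method gave 0.0359, the fits without 1 library gave log2 fold changes of 2.71 to 3.28, and the adjusted p over the alternatives ran from 1.23e-11 to 0.13. The exceptions were the 2 limma fits on TPM, in which the log2 fold change with a pseudocount of 1 was 1.76 and no gene of the table passed. A short annotated transcript of 330 bases took 46.6% of the gene's TPM in PC1 from 4.86 estimated counts, and that transcript was at 0 in the other 3 libraries. Col24a1 TPM was therefore 2.83 in PC1 with that transcript, while the full-length Col24a1-201 was 1.45, 1.93, 7.91 and 11.01 TPM in PC1, PC2, HC3 and HC4.

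**Figure D3:**
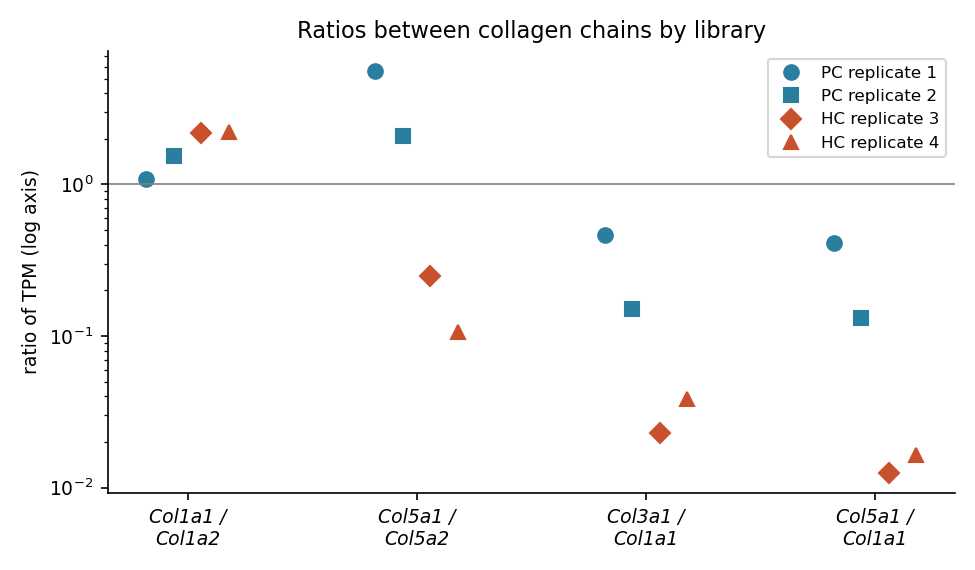
Ratios of TPM between collagen chains (log axis) in each library, with the line at 1 where both chains are equal. The Col5a1 to Col5a2 ratio lies above 1 in both PC libraries and below 1 in both HC libraries, and the Col3a1 and Col5a1 ratios to Col1a1 are lower in both HC libraries.

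The fibril-associated collagens did not pass. Col12a1, which lies at chr9:79598991-79718831 on the minus strand, had 381 and 439 CPM in PC1 and PC2 and 377 and 163 CPM in HC3 and HC4. In CPM, HC3 was just under PC1, and HC4 was the only library that stood apart. In TPM, both HC libraries (30.5 and 19.8) stood well below both PC libraries (58.5 and 57.5). The log2 fold change was -0.60 ± 0.43 (SE, n = 2 a group) with an edgeR adjusted p of 0.376. Without HC3 it was -1.33 with an adjusted p of 0.0261, and over all alternatives the adjusted p ran to 0.788. Col14a1, at chr15:55307750-55520803 on the plus strand, was low, with 5.67 and 10.3 CPM in PC1 and PC2 and 7.47 and 10.8 CPM in HC3 and HC4. The groups overlapped, and the log2 fold change was 0.21 ± 0.53 (SE, n = 2 a group) with an edgeR adjusted p of 0.82. Its sign was negative in 6 of 16 alternatives, and none passed.

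Within Col12a1 the deposited estimates moved from one annotated transcript to another. Col12a1-201 has 66 exons and 11511 bases, and Col12a1-202 has 65 exons and 9953 bases. On the minus strand, Col12a1-201 runs on to position 79598991, while Col12a1-202 ends at 79601759. Of their exonic bases, 2201 belong to Col12a1-201 alone and 643 to Col12a1-202 alone. Col12a1-201 held 60.8% and 47.3% of the gene's TPM in PC1 and PC2 and 12.5% and 29.5% in HC3 and HC4. Col12a1-202 held 27.3% and 46.1% in PC1 and PC2 and 85.4% and 69.5% in HC3 and HC4. In TPM, Col12a1-201 was 35.6, 27.2, 3.81 and 5.84 over PC1, PC2, HC3 and HC4, and Col12a1-202 was 15.996, 26.5, 26.1 and 13.8. The longer transcript was thus lower in both HC libraries, while the groups overlapped for the shorter one. These are likelihood shares of reads that the transcripts have in common, their error is unknown, and no test was run. For Col1a1 no such question arises, since Col1a1-201 held at least 96.6% of its TPM in each library. For Col14a1, Col14a1-201 and Col14a1-202 differ by 3 bases each, so their split is uncertain. Another coding transcript of Col14a1, listed with 6447 bases in the deposited tables against 6457 for Col14a1-201, was at 0 in both PC libraries and held 74.5% and 80.7% of the gene's TPM in HC3 and HC4, from 70.2 and 194 estimated counts. GENCODE M21 gives that transcript 5679 exonic bases, so the model behind its estimate may differ from the annotation used here.

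**Figure D4:**
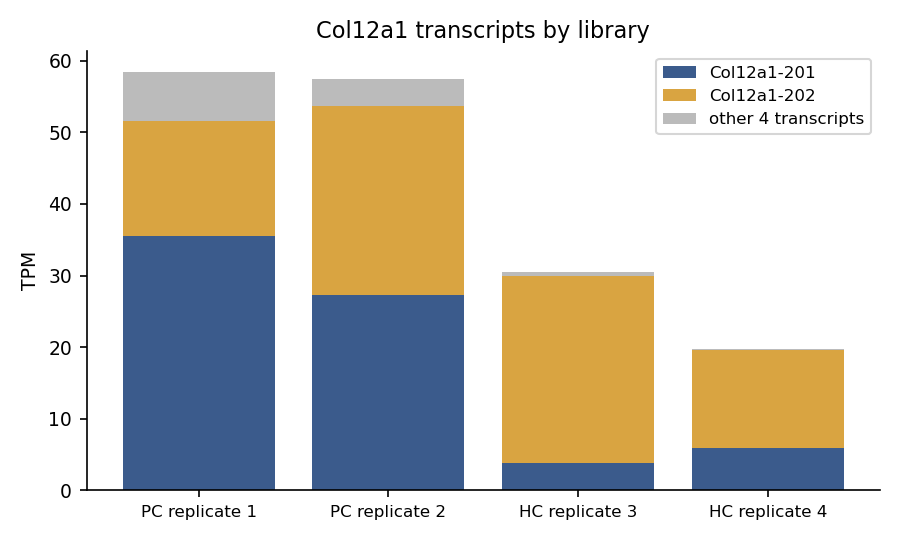
TPM of Col12a1 in each library, stacked by annotated transcript, as estimated by the authors' read assignment. The Col12a1-201 part is smaller in both HC libraries (3.81 and 5.84 TPM) than in both PC libraries (35.6 and 27.2 TPM).

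Compared per length, the order of the 9 genes was headed by Col1a1 and Col1a2 in all 4 libraries. Col1a1 was 100, 170, 1276 and 681 TPM and Col1a2 was 92.7, 111, 582 and 305 TPM in PC1, PC2, HC3 and HC4. The gap between them was small in PC1 and wide in HC, with a Col1a1 to Col1a2 ratio of 1.08 and 1.54 in PC1 and PC2 and 2.20 and 2.23 in HC3 and HC4. In PC, Col12a1 came next with 58.5 and 57.5 TPM, followed by Col3a1 with 46.6 and 25.9 TPM and Col5a1 with 41.4 and 22.4 TPM. Col3a1 and Col5a1 overlapped within PC. In HC, Col5a2 held the third place in both libraries. Col3a1, with 29.3 and 26.2 TPM, and Col12a1, with 30.5 and 19.8 TPM, overlapped there, and Col5a1 and Col24a1 (7.91 and 13.9 TPM) overlapped below them. Col14a1, at 0.962 to 2.37 TPM, and Col5a3, at 0 to 0.509 TPM, were the lowest of the 9 in all but PC2, where Col24a1 with 2.01 TPM was below Col14a1.

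The 9 genes together summed to 352 and 402 TPM in PC1 and PC2 and to 2007 and 1163 TPM in HC3 and HC4. They made 1.81% and 3.09% of the TPM of all collagen genes in PC1 and PC2 and 16.3% and 5.39% in HC3 and HC4. HC3 held most of this rise, as it did for collagen I. Over the same libraries Col2a1, the main cartilage collagen, made 39.4%, 33.9%, 17.8% and 19.2% and Col10a1 made 0.283%, 2.97%, 38.2% and 51.7% of collagen TPM. Among the 44 collagens, Col1a1 ranked 11th and 12th in PC1 and PC2 and was number 4 in both HC libraries, and Col5a2 moved from ranks 23 and 20 to rank 11 in both. Col12a1 went from ranks 14 and 15 to rank 18 in both HC libraries.

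The enzymes and chaperones that modify and fold procollagen mostly did not follow collagen I. These proteins hydroxylate prolines and lysines, add sugars, hold the helix together and carry it out of the endoplasmic reticulum. The list also holds Creb3l1, which is a transcription factor and not an enzyme or chaperone. Of the 25 genes tested, 1 was called higher and 9 lower, beside 6.28% and 5.13% of all genes, and the median log2 fold change was -0.92 against -0.03 over all genes tested. Plod2, the lysyl hydroxylase that acts on the ends of collagen I and II chains, had 811 and 782 CPM in PC1 and PC2 and 257 and 110 CPM in HC3 and HC4, and fell by 2.12 ± 0.45 (SE) on the log2 scale. Colgalt2, a galactosyltransferase of hydroxylysine, had 269 and 223 CPM in the PC libraries and 46.8 and 34.6 CPM in the HC libraries and fell by 2.60 ± 0.34 (SE). P3h3, P3h4, Plod1, P3h1, Plod3, Sec24d and Fkbp10 also fell, by 2.28, 2.12, 1.94, 1.57, 2.26, 1.61 and 1.84. Serpinh1, the collagen chaperone, was 2417 and 1731 CPM in the PC libraries and 776 and 637 CPM in the HC libraries, with an edgeR adjusted p of 0.0502.

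Creb3l1 was the gene of that list called higher. It had 7.09 and 26.4 CPM in PC1 and PC2 and 501 and 160 CPM in HC3 and HC4, with HC3 above HC4 as for collagen I. The log2 fold change was 4.30 ± 0.74 (SE, n = 2 a group), with an edgeR adjusted p of 0.0108, and 0.0531 by the earlier method. By the earlier method Colgalt2, P3h3 and P3h4 were the genes of the list that passed, 0 higher and 3 lower. Without PC1, 1 was called higher and 3 lower, and 7 of the 10 genes that passed with all 4 libraries were lost.

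Removal of the procollagen ends and cross-linking gave 2 genes higher and 1 lower of 12 tested, beside 6.28% and 5.13% of all genes. The median log2 fold change was 0.35. Lox, the lysyl oxidase that cross-links collagen I, had 10.3 and 34.9 CPM in PC1 and PC2 and 824 and 450 CPM in HC3 and HC4, and rose by 4.82 ± 0.64 (SE). Loxl4, a relative, had 30.3 and 49.4 CPM in the PC libraries and 510 and 1187 CPM in the HC libraries and rose by 4.41 ± 0.53 (SE). Loxl3, another relative, had 417 and 368 CPM in the PC libraries and 67.5 and 63.1 CPM in the HC libraries and fell by 2.59 ± 0.32 (SE). The adjusted p-values of the 3 genes were 0.00611, 0.00589 and 0.00589, and all 3 also passed by the earlier method and without PC1. Loxl2, which showed 232 and 230 CPM in the PC libraries and 376 and 527 CPM in the HC libraries, had an edgeR adjusted p of 0.096. Bmp1, the protease that removes the carboxyl ends, had 48.0 and 34.9 CPM in the PC libraries and 39.3 and 96.1 CPM in the HC libraries, with an adjusted p of 0.316.

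**Figure D5:**
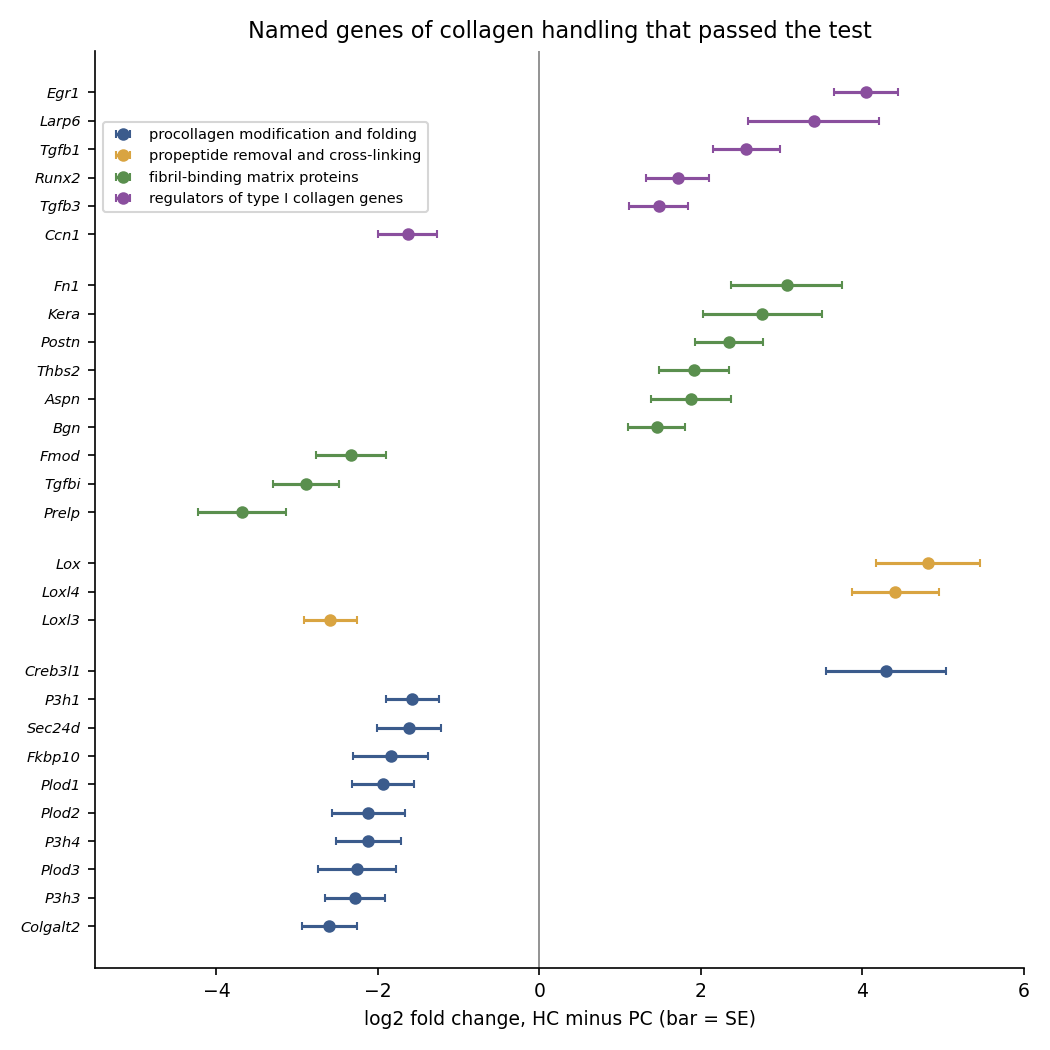
Log2 fold change of HC against PC, with SE bars, for those genes named in the text from 4 lists on collagen handling that passed the test. The list of modification and folding lies left of 0 except for Creb3l1, and Lox, Loxl4 and Egr1 lie right of it at more than 4.

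Proteins that bind collagen fibrils gave 6 genes higher and 3 lower of 18 tested, beside 6.28% and 5.13% of all genes. The median log2 fold change was 1.32. Fn1, fibronectin, rose by 3.06 ± 0.69 (SE) from 1356 and 1754 CPM in the PC libraries to 10060 and 15958 CPM in the HC libraries. Postn, a matrix protein of perichondrium and periosteum, rose by 2.35 ± 0.42 (SE) from 9.36 and 14.3 CPM in the PC libraries to 76.6 and 44.1 CPM in the HC libraries. Thbs2, Bgn, Aspn and Kera rose by 1.91, 1.45, 1.88 and 2.76. Prelp, Tgfbi and Fmod fell by 3.68, 2.89 and 2.33, and Prelp went from 1211 and 896 CPM in the PC libraries to 122 and 43.4 CPM in the HC libraries. By the earlier method 2 were called higher (Postn and Fn1) and 2 lower (Tgfbi and Prelp). Kera and Fmod also stand among the tendon markers, and Postn and Aspn among those of perichondrium and fibroblasts. Without PC1, 0 of 18 were called higher and 3 lower by edgeR.

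Regulators of the collagen I genes gave 6 genes higher and 1 lower of 28 tested, beside 6.28% and 5.13% of all genes. The median log2 fold change was 0.55. Egr1, an immediate early zinc-finger factor that is also among the tendon markers, rose by 4.05 ± 0.40 (SE) from 7.21 and 12.6 CPM to 166 and 162 CPM. Tgfb1 and Tgfb3, ligands that raise collagen I synthesis in fibroblasts, rose by 2.56 and 1.48, and Runx2 rose by 1.71. Larp6, which binds the 5′ stem-loop of collagen I mRNAs, rose by 3.40 ± 0.81 (SE) at low levels, from 0.436 and 0.623 CPM to 3.17 and 7.74 CPM. Ccn1, a matricellular protein that responds to the same signals, fell by 1.63. Sox9, the master factor of cartilage genes, was 1515 and 1349 CPM in the PC libraries and 613 and 272 CPM in the HC libraries, with an edgeR adjusted p of 0.0522. Sp7, the osteoblast factor, was 33.2 and 22.2 CPM in the PC libraries and 32.1 and 50.6 CPM in the HC libraries, with an adjusted p of 0.346. By the earlier method 3 were called higher, Egr1 and Tgfb1 among them, and without PC1, 3 were called higher and 0 lower by edgeR.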

How the data were processed

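Chondrocytes of proliferating (PC1, PC2) and hypertrophic (HC3, HC4) cartilage were sequenced, 2 libraries per group. The authors trimmed reads with Trimmomatic 0.36 and estimated transcripts with kallisto 0.43.1 (pseudoalignment) on mouse build mm10, per the submitters' processing notes. Per the file headers, the deposited tables give an estimated count and a TPM for each transcript. A strand setting was not given in the sources used here, so overlapping genes may share reads.

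Of 109282 transcripts, 107987 matched GENCODE M21 (GRCm38) by identifier. Transcripts that did not match held 0.362% to 0.534% of counts and stayed out. Gene sums of the estimated counts were rounded, filtered with filterByExpr (16607 genes left) and scaled with TMM factors of 1.14, 1.058, 0.812 and 1.021. The test was glmQLFTest of edgeR 4.0.16 in R 4.3.3, with the dispersion method introduced in edgeR 4 (legacy = FALSE, which is not the default of this version), over all genes, with Benjamini-Hochberg adjustment and a threshold of 0.05. The default of this version (legacy = TRUE) is called the earlier method, and it called fewer genes. SE came from the coefficient and the F statistic. The alternatives were other scaling, filters, DESeq2 1.42.0, limma 3.58.1 on counts and on log2(TPM + 1) or log2(TPM + 0.1), a length offset, and leaving out each library. A fit without 1 library leaves a lone sample in its group, which is assumed to vary like the other group. Libraries of a group differed by far more than sampling noise, with chi-square values per degree of freedom of 110.3 in PC and 208.7 in HC. After the main fit, the test was also run on counts simulated from the means and dispersions of these data, and that outcome is not given here. Python 3.11.15 was used for sums and figures.

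The members and gene lists were chosen with earlier results of these data known. All 9 members were described. Of the other lists, the genes that passed were named, with up to 4 of the smallest p among the rest, except 1 that is not reported here, plus Bmp1, Sp7, Col2a1, Ihh and the single markers of other cell types, chosen after their values were seen.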

Additional observations from a re-analysis of the deposited data

How the results depend on the processing

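Depth limits Col5a3 most, with 5 counts in HC. Zone and age, and the lower depth of HC, cannot be separated with 2 libraries per group. Genes called higher and lower numbered 1043 and 852, and changed with the method. They were 663 higher with library size alone, 606 and 430 with no filter, 1651 and 1468 with DESeq2, 457 and 325 with edgeR's earlier method, and 0 and 0 with limma on log2(TPM + 1) and on log2(TPM + 0.1), where 4260 and 3993 genes had an unadjusted p below 0.05. With library size alone the median log2 fold change of all genes was -0.29. Its calls were 663 higher against 990 lower, beside 1043 against 852 with TMM. Leaving out 1 library gave 291 to 2931 genes higher and 177 to 3685 lower, the lowest without PC1 and the highest without HC4.

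Of the 9 collagens, 2 were called higher with the earlier method, 0 with limma on log2(TPM + 1) and 0 on log2(TPM + 0.1), and 2 to 4 when 1 library was left out, the lowest without PC1. Called lower were 0 to 3, where the 3 without HC3 were Col5a1, Col5a3 and Col12a1. The median log2 fold change of the 9 turned to -0.0057 with library size alone, -0.28 with log2(TPM + 1) and -0.33 with log2(TPM + 0.1). Col3a1 turned to -0.0057, -0.32 and -0.33 in the same 3 settings, and spanned -0.0863 to 0.59 when 1 library was left out. Col14a1 turned to -0.0064, -0.28 and -0.45 in them and to -0.0377 with the length offset, and spanned -0.15 to 0.71. The other 7 collagens kept their sign in all 16 alternatives.

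With the earlier method, modification and folding gave 0 higher and 3 lower, fibril-binding proteins 2 higher, and collagen I regulators 3 higher and 0 lower, where the method used in the report gave 1, 9, 6, 6 and 1. Leaving out 1 library gave 1 to 3 higher and 3 to 13 lower for modification and folding, 2 to 4 higher and 1 to 3 lower for cross-linking, 0 to 10 higher and 3 to 5 lower for fibril-binding proteins, and 3 to 9 higher and 0 to 3 lower for regulators. The list counts under the earlier method were added after the data were seen. The cause of these changes was not tested. No paired analysis was possible because the groups share no replicate numbers.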

Other observations

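Of 10 receptors of fibrillar collagens tested, 2 were called higher and 1 lower by edgeR, beside 6.28% and 5.13% of all genes tested. Itga2, the integrin chain of the main collagen I receptor, had 4.04 and 10.2 CPM in PC1 and PC2 and 208 and 260 CPM in HC3 and HC4, and rose by 5.03 ± 0.51 (SE) on the log2 scale with an adjusted p of 0.00589. Itga1 rose by 1.85 ± 0.39 (SE), and Mrc2, the uptake receptor for collagen fragments, fell by 1.47 ± 0.39 (SE). Ddr2, a receptor kinase for fibrillar collagen, was 250 and 236 CPM in the PC libraries and 130 and 45.8 CPM in the HC libraries, with an edgeR adjusted p of 0.0774. By the earlier method Itga2 was the gene of this list that passed. Without PC1, 1 was called higher and 0 lower by edgeR, with adjusted p-values of 0.147 for Itga1 and 0.436 for Mrc2, and without HC3 or HC4, 3 and 2 were called lower.

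Of 10 genes tested for collagen breakdown, proteases and their inhibitors together, 5 were called higher and 2 lower. The shares over all genes tested were 6.28% higher and 5.13% lower, here and for the collagens named below. Mmp13 rose by 5.196 ± 1.06 (SE) from 8.51 and 117 CPM in the PC libraries to 2182 and 2426 CPM in the HC libraries. Ctsk and Mmp9, which are also osteoclast genes, rose by 4.11 and 4.65, Timp3, an inhibitor, by 2.17, and Mmp14 by 1.15, while Mmp2 and Mmp16 fell by 1.64 and 1.40. By the earlier method Ctsk and Timp3 passed. Without PC1, 4 were called higher and 0 lower by edgeR, with adjusted p-values of 0.327 for Mmp14, 0.257 for Mmp2 and 0.142 for Mmp16. Without PC2, 1 was called lower. Among 25 other collagens outside cartilage fibrils, 3 rose (Col4a5, Col4a6 and Col22a1, by 2.83, 2.37 and 2.17) and 2 fell (Col16a1 and Col15a1, by 2.53 and 2.52). The number that rose was 1 without PC1, 2 without PC2, 7 without HC3 and 6 without HC4, and the number that fell was 7 without HC3 and 4 without HC4. The earlier method gave 1 and 1. Among 8 cartilage collagens, Col10a1 rose by 5.50 ± 1.18 (SE) and Col27a1 fell by 1.86 ± 0.39 (SE). Without PC1 both calls were lost, with edgeR adjusted p-values of 0.143 and 0.121. Col10a1 had 0.0538 by the earlier method, and without HC4, 3 of the 8 were called lower. Col2a1 had 21867 and 15020 CPM in PC1 and PC2 and 13021 and 15651 CPM in HC3 and HC4, with an edgeR adjusted p of 0.794.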
